A study of Callithrix jacchus with 4 samples.

Results

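Somatostatin interneurons are the nuclei that the deposited annotation of marmoset (Callithrix jacchus) somatosensory cortex calls Inh_Sst. They were taken by that cell type label alone, and they numbered 2457 of 36592 nuclei (6.71%). Of these, 2023 came from neonates (labelled D0, age 0) and 434 from adults (labelled Y2, age 2 years). All animals were wild type, and each library was made from a separate animal, so that D0 and Y2 each had 2 libraries. Replicate 1 of both ages was listed under batch 1 and replicate 2 under batch 2, so that every age difference could be read within a batch. The methods of the study describe a further library in batch 1, which was not analysed here. The neonatal libraries held 6482 (replicate 1) and 14142 (replicate 2) nuclei and the adult libraries 5622 and 10346. The table lists the age, replicate, batch, cluster and type of each nucleus and no gene values. The label was therefore not checked against SST, LHX6 and GAD1, which mark these cells, and everything below is about numbers of nuclei.

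Cortical somatostatin interneurons are GABAergic cells that mainly inhibit the dendrites of pyramidal neurons. They arise in the medial ganglionic eminence of the embryonic brain, as do the parvalbumin interneurons, and migrate into the cortex under a program that depends on the transcription factor LHX6. Vip and many Lamp5 interneurons come from the caudal ganglionic eminence instead, and Vip cells are known for inhibiting somatostatin cells. GAD1 encodes an enzyme that makes the transmitter GABA.

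The libraries were first checked for nuclei held in common. Across the 4 libraries, 652 barcodes occurred in more than 1 library. Of the Inh_Sst nuclei, 89 (3.62%) carried such a barcode, against 3.57% of all nuclei. In the 6 pairs of libraries, 0 barcodes marked an Inh_Sst nucleus in both. The share of nuclei with a barcode seen elsewhere was thus close for Inh_Sst and for the whole table.

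Inh_Sst nuclei were a larger part of the neonatal libraries than of the adult ones, counted against all nuclei, against neurons and against interneurons. They were 704 of 6482 nuclei in D0 replicate 1 (10.9%, Wilson 95% interval 10.1 to 11.6) and 1319 of 14142 in D0 replicate 2 (9.33%, 8.86 to 9.82). In the adults they were 138 of 5622 nuclei in Y2 replicate 1 (2.45%, 2.08 to 2.89) and 296 of 10346 in Y2 replicate 2 (2.86%, 2.56 to 3.20). The lowest neonatal library lay well above the highest adult one. Among the 10 annotated types, Inh_Sst held rank 3 and rank 5 by number in the neonates, and rank 6 and rank 7 in the adults. These intervals cover counting error only, not the spread between animals.

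The odds that a nucleus was Inh_Sst fell at Y2 (adjusted p = 0.0354, limma over the 10 types). The neonatal odds were 4.10 times the adult odds (95% interval 1.74 to 9.65). Of the 10 types, 30.0% passed this test. Inh_Vip passed with a larger fitted fall (odds 6.20 times higher at D0, adjusted p = 0.0354, limma), and Inh_Lamp5 with a rise. With replicate number as a block, the 2 batches were compared within themselves. The adjusted p of Inh_Sst was then 0.0787, so its call was lost, although its neonatal share exceeded the adult one 4.42-fold in batch 1 and 3.26-fold in batch 2. On the centred log-ratio scale without Inh_Lamp5 it was lost as well (adjusted p = 0.160), and also with each library left out, at adjusted p values of 0.231 and 0.214 without D0 replicates 1 and 2 and of 0.154 and 0.0679 without Y2 replicates 1 and 2. A share cannot tell fewer Inh_Sst nuclei from more nuclei of other types.

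With glia removed from the total, the replicates at D0 lay closer together. Inh_Sst made up 11.3% and 10.6% of neurons in the neonates, and 2.46% and 2.97% in the adults. The neonatal mean was 10.99% ± 0.512 (SD, n = 2) and the adult mean 2.72% ± 0.360 (SD, n = 2). The adult value minus the neonatal value was -8.89 points in batch 1 and -7.65 in batch 2.

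The same comparison within the interneurons does not depend on how many projection neurons or glia were captured. Inh_Sst was the most numerous of the 4 interneuron types in both neonates and the second most numerous, after Inh_Pvalb, in both adults. Its share of interneurons was 40.2% (37.9 to 42.5) and 45.2% (43.4 to 47.0) in D0 replicates 1 and 2. In the adults it was 22.8% (19.7 to 26.4) and 22.6% (20.5 to 25.0), so that the adult libraries differed by less than their counting error. The share fell at Y2 (adjusted p = 0.00263, limma; odds 2.52 times higher at D0, 95% interval 1.53 to 4.14). All 4 interneuron types passed (100%), and as their shares sum to a constant a call for 1 type is not independent of the others. Inh_Vip had a larger fitted fall (odds 3.71 times higher at D0), while Inh_Pvalb and Inh_Lamp5 rose. The call held in 13 of the 14 alternatives run for the Inh_Sst share, the replicate block included. In the fits without a library, 1 age is a lone library that is assumed to vary like the rest, here and for the ratios below. Without D0 replicate 1 or 2 the SE of the log odds was 0.057, below the 0.062 that counting error alone gives with all libraries. Those fits therefore add no support to the call. The call was lost when Inh_Lamp5 was left out and shares were taken as centred log-ratios (adjusted p = 0.0751, limma), an alternative chosen after the data were seen.

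**Figure D1:**
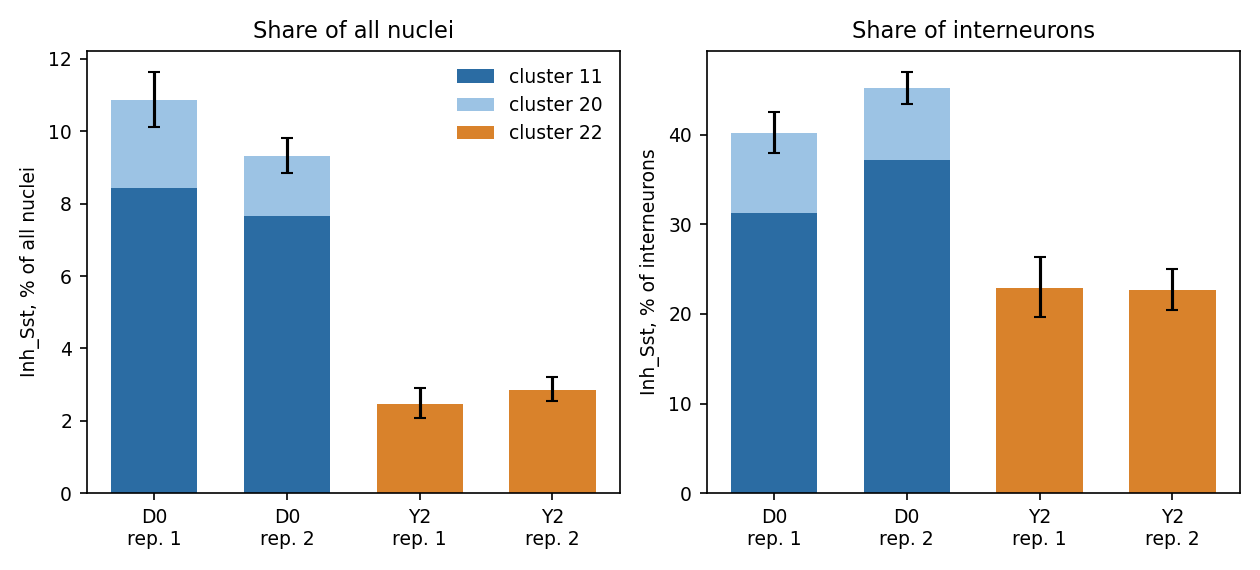
Share of Inh_Sst nuclei (%, y axis) among all nuclei (left) and among interneurons (right) in each library (x axis), stacked by deposited cluster, with 95% Wilson intervals of the total as bars. The neonatal totals of 10.9% and 9.33% of nuclei lie above the adult totals of 2.45% and 2.86%, clusters 11 and 20 appear at D0 only and cluster 22 at Y2 only.

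The Inh_Sst nuclei lay in 3 of the 34 deposited clusters, and these clusters held 0 nuclei of any other type. The authors assigned types by cluster, so that this 0 is no measure of how pure the clusters are. Clusters 11 and 20 held neonatal nuclei and cluster 22 held adult nuclei. Inh_Sst was the only interneuron type with more than 1 cluster at an age. Inh_Pvalb and Inh_Vip had 1 cluster at each age, and Inh_Lamp5 had 1 at Y2 and 0 at D0. Nuclei of D0 were listed 0 times in cluster 22, which allows up to 0.426% and 0.227% of the Inh_Sst nuclei of D0 replicates 1 and 2. Nuclei of Y2 were listed 0 times in clusters 11 and 20, which allows up to 2.17% and 1.01% of the Inh_Sst nuclei of Y2 replicates 1 and 2 for each cluster. These limits are the share that 3 nuclei would make. Clusters 0, 17 and 18, which were annotated as other types, held nuclei of both ages. Every other one of the 34 clusters held nuclei of 1 age only, all 8 interneuron clusters included. The split by age is therefore not particular to Inh_Sst.

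Cluster 11, with 1631 nuclei, was the largest of the 8 interneuron clusters and held 66.4% of all Inh_Sst nuclei. It took 547 nuclei in D0 replicate 1 and 1084 in D0 replicate 2, which were 8.44% and 7.67% of those libraries. With libraries weighted equally, 52.4% of the cluster came from replicate 1. Both neonates thus contributed in near proportion to their depth. Set against the interneurons they differed more, at 31.2% (29.1 to 33.4) in replicate 1 and 37.1% (35.4 to 38.9) in replicate 2. These intervals did not overlap.

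Cluster 20, with 392 nuclei, held 16.0% of all Inh_Sst nuclei. It took 157 nuclei in D0 replicate 1 (2.42% of the library, 2.08 to 2.83) and 235 in D0 replicate 2 (1.66%, 1.46 to 1.89). With libraries weighted equally, 59.3% of the cluster came from replicate 1. Its share of the library was 1.46-fold higher in replicate 1, but its share of the interneurons was 8.96% (7.71 to 10.4) and 8.05% (7.12 to 9.09), a 1.11-fold difference within counting error. Set against the interneurons, the 2 neonates therefore held cluster 20 at similar levels.

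Within the neonatal Inh_Sst nuclei, cluster 20 made up 22.3% (19.4 to 25.5) in replicate 1 and 17.8% (15.8 to 20.0) in replicate 2. There were 3.48 nuclei of cluster 11 for each nucleus of cluster 20 in replicate 1 (counting interval 2.92 to 4.16) and 4.61 in replicate 2 (4.01 to 5.31). The larger cluster outnumbered the smaller in both animals. With 2 libraries of a single age there is no test of the split.

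Cluster 22 was the sole adult cluster and held 434 nuclei, 138 in Y2 replicate 1 and 296 in Y2 replicate 2. With libraries weighted equally, 46.2% came from replicate 1. Its share of nuclei (2.45% and 2.86%) was far below that of cluster 11. It was close to that of cluster 20 in D0 replicate 1 (2.42%) but above it in D0 replicate 2 (1.66%). Of the interneurons, cluster 22 made up 22.8% and 22.6%, above cluster 20 (8.96% and 8.05%) in both neonates.

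Cluster 20 held D0 nuclei only, so that taking it out of Inh_Sst could only make the age difference smaller. Left out, it changed the log odds of Inh_Sst over all nuclei from -1.41 to -1.19 (adjusted p = 0.0517, limma), which no longer passed, while within interneurons the log odds were -0.70 and still passed (adjusted p = 0.0139). Counted as Inh_Lamp5, the type absent from the neonatal annotation, it left the interneuron share of Inh_Sst lower at Y2 (log odds -0.56, adjusted p = 0.0162), but not the share of all nuclei (-1.17, adjusted p = 0.0598).

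Ratios between types ask against which neighbours Inh_Sst differed with age. They were examined for all 45 pairs of types with limma on the log2 scale, of which 28.9% passed, and the 9 pairs that hold Inh_Sst are given here. Of these 9, 2 passed (22.2%), the ratios to CthPN and to Inh_Lamp5, and 5 had an unadjusted p under 0.05. All 9 pairs that hold Inh_Lamp5 passed, but only 4 of the other 36. An unadjusted p under 0.05 (limma) was likewise found for all 9 Inh_Lamp5 pairs and for 13 of the other 36. Without the Inh_Lamp5 pair, it was found for 4 of 8 Inh_Sst pairs. The ages did not overlap in 8 of the 9 pairs, against 77.8% of all 45. A count of pairs thus does not set Inh_Sst apart, and the values of each ratio follow. Exact permutation tests over the 4 libraries gave p = 0.333 for each of the 7 non-overlapping ratios to types present at both ages, the smallest value that 2 against 2 libraries allow.

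Inh_Pvalb, the fast-spiking cells that inhibit the cell bodies of pyramidal neurons, share the embryonic origin of Inh_Sst. There were 1.63 Inh_Sst nuclei per Inh_Pvalb nucleus in D0 replicate 1 (counting interval 1.45 to 1.84) and 1.66 in D0 replicate 2 (1.52 to 1.81). In the adults there were 0.407 (0.334 to 0.496) and 0.436 (0.380 to 0.500). The intervals of the animals of an age overlapped, whereas the ages were 4.01-fold apart in batch 1 and 3.8-fold apart in batch 2. The mean log2 ratio was 0.72 ± 0.015 (SD, n = 2) in neonates and -1.25 ± 0.070 (SD, n = 2) in adults.

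This ratio had a log2 difference (Y2 minus D0) of -1.96 and did not pass over all pairs (adjusted p = 0.0878, limma). That fit draws the spread of each pair towards the spread over all pairs, those with glia included, and gave an SE of 0.72. The fit to neuronal pairs alone, in which limma pooled the spread of all pairs, called it (adjusted p = 0.00804). The quasi-binomial model also did (SE 0.041, adjusted p = 0.0157), but that SE lies below the 0.098 that counting error alone gives, and with the spread held at counting error or above the ratio did not pass (adjusted p = 0.0901). Expressed as a share, Inh_Sst was 62.0% and 62.4% of the nuclei of both types in the neonates, and 28.9% and 30.4% in the adults. The difference (Y2 minus D0) was -33.1 points within batch 1 and -32.0 within batch 2, against SDs of 0.239 at D0 and 1.01 at Y2 (n = 2 each, exact permutation p = 0.333). With cluster 20 left out, it was still -27.2 points.

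Inh_Vip was the neuronal partner with the smallest fitted difference between ages. Inh_Sst nuclei per Inh_Vip nucleus were 1.14 (1.02 to 1.27) and 1.64 (1.50 to 1.79) in D0 replicates 1 and 2. They were 2.65 (1.93 to 3.65) and 1.66 (1.38 to 2.00) in Y2 replicates 1 and 2. The ages differed 2.33-fold in batch 1 and only 1.01-fold in batch 2, where the neonatal and adult values lay within each other's counting interval. The log2 difference of 0.61 did not pass (95% interval -1.38 to 2.61, adjusted p = 0.519, limma), and its interval spans a large change in either direction.

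Inh_Lamp5, which includes neurogliaform cells, was annotated in 0 neonatal nuclei. Inh_Sst nuclei per Inh_Lamp5 nucleus were 1.84 (1.39 to 2.44) and 1.92 (1.58 to 2.34) in the adults. In the neonates the ratio was at least 235 and 440, taking 3 nuclei as the limit for a count of 0. With the annotation taken as given, it was thus at least 128-fold higher at D0 in batch 1, and in batch 2 at least 229-fold. These limits cover counting only and do not hold if neonatal Inh_Lamp5 nuclei were annotated as another type. The ratio passed (adjusted p = 0.00142, limma), with neonatal values set by the 0.5 nuclei added. With cluster 20 counted as Inh_Lamp5, it no longer passed (log2 difference -1.09, adjusted p = 0.262).

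**Figure D2:**
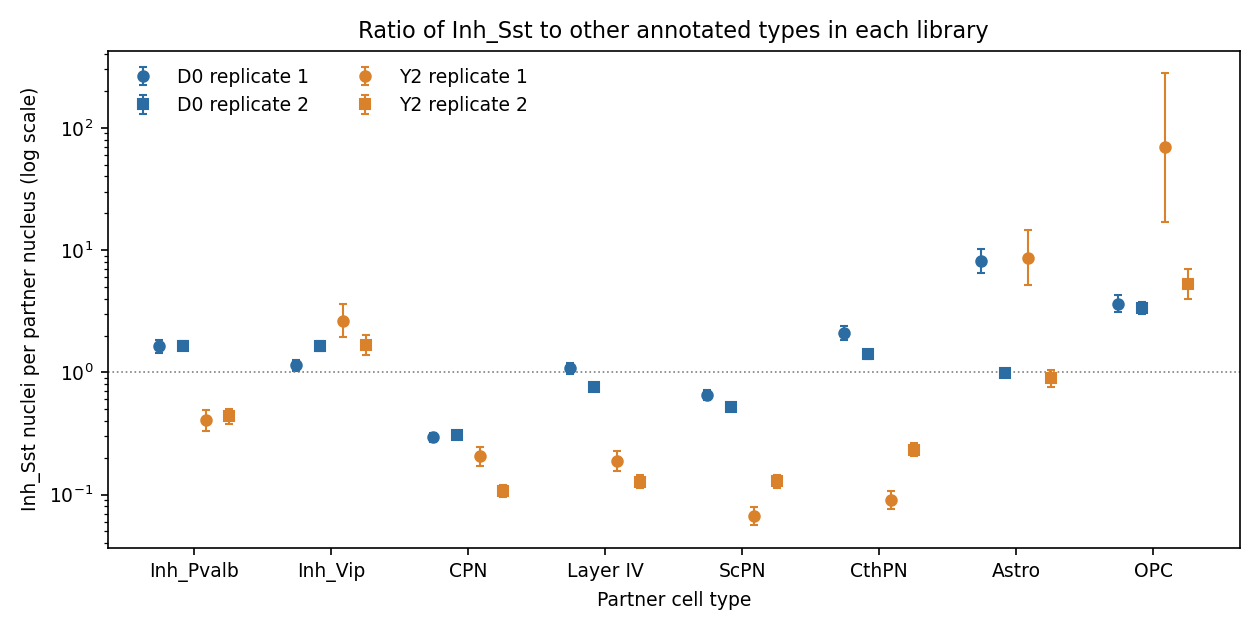
Inh_Sst nuclei per nucleus of each partner type (y axis, log scale; x axis, partner), coloured by age (blue D0, orange Y2), with a circle for batch 1, a square for batch 2 and 95% counting intervals as bars. The ratio to Inh_Pvalb lies at 1.63 and 1.66 at D0 and at 0.407 and 0.436 at Y2, while the ratio to astrocytes follows the replicate and not the age.

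Against the projection neurons as a class, the long-range excitatory cells of the cortex, there were 6.32 and 7.20 projection neurons per Inh_Sst nucleus in the neonates. In the adults there were 36.2 and 29.2. The proportion of Inh_Sst to projection neurons was 5.73-fold higher at D0 in batch 1 and 4.06-fold in batch 2 (exact permutation p = 0.333). For all 4 projection neuron types the counting intervals of the 2 adults did not overlap. Those of the 2 neonates did not overlap either for CthPN, Layer IV and ScPN, but did for CPN.

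Corticothalamic projection neurons (CthPN) send axons from deep layers to the thalamus. Inh_Sst nuclei per CthPN nucleus were 2.1 (1.84 to 2.39) and 1.41 (1.29 to 1.53) in the neonates. They were 0.0903 (0.0759 to 0.108) and 0.233 (0.206 to 0.265) in the adults. Inh_Sst outnumbered CthPN in both neonates and was outnumbered by it in both adults. The ratio fell by 3.56 on the log2 scale (SE 0.86, adjusted p = 0.0386, limma), which is 11.8-fold lower at Y2 (95% interval 2.49 to 55.7). The fall was 23.2-fold in batch 1 and 6.02-fold in batch 2. Leaving out D0 replicate 1 (adjusted p = 0.256), D0 replicate 2 (0.169) or Y2 replicate 1 (0.0607) ended the call, as did testing without the pairs that hold Inh_Lamp5 (0.0983). Without Y2 replicate 2 the log2 difference was -4.24. The call held with the replicate block (adjusted p = 0.00395, limma), although the SE rose from 0.86 to 0.96. There limma drew each pair more towards the spread over all pairs (prior degrees of freedom 19.6, against 2.83 in the main fit).

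Layer IV neurons are the main cortical target of thalamic input. Inh_Sst nuclei per Layer IV nucleus were 1.08 (0.971 to 1.2) and 0.763 (0.711 to 0.820) at D0, and 0.188 (0.157 to 0.226) and 0.128 (0.113 to 0.144) at Y2. The values at D0 were 5.74-fold and 5.97-fold those at Y2 in batches 1 and 2, so that the batches gave nearly the same difference. The log2 difference of -2.55 (SE 0.76) did not pass over all pairs (adjusted p = 0.0554, limma). It passed with the replicate block (adjusted p = 0.0250, limma), where the estimate was unchanged and the SE rose to 0.93. As for CthPN, limma there drew the pair more towards the spread over all pairs.

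Subcerebral projection neurons (ScPN) project to targets below the cerebrum such as the brainstem and spinal cord. Inh_Sst nuclei per ScPN nucleus were 0.653 (0.594 to 0.718) and 0.522 (0.488 to 0.558) at D0, and 0.0668 (0.0562 to 0.0793) and 0.128 (0.114 to 0.145) at Y2. The neonatal ratio was 9.78-fold higher in batch 1 and 4.07-fold higher in batch 2. The log2 difference of -2.65 (SE 0.79) did not pass over all pairs (adjusted p = 0.0554, limma). It passed with the replicate block (adjusted p = 0.0239, limma), where the estimate was unchanged and the SE rose to 0.94. The stronger pooling of spread named for CthPN applies here too. The log2 difference was -3.12 without Y2 replicate 2 and -2.18 without Y2 replicate 1.

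Callosal projection neurons (CPN), which join the hemispheres, had the smallest fitted difference against Inh_Sst among the projection neurons. Inh_Sst nuclei per CPN nucleus were 0.295 (0.271 to 0.321) and 0.307 (0.288 to 0.326) in D0 replicates 1 and 2, within counting error of each other. They were 0.206 (0.171 to 0.247) and 0.107 (0.0951 to 0.121) in Y2 replicates 1 and 2. The neonatal ratio was 1.44-fold higher in batch 1 and 2.86-fold higher in batch 2. The log2 difference of -1.02 did not pass (95% interval -3.04 to 1.01, adjusted p = 0.333, limma).

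Of the glial partners, astrocytes differed between the animals of both ages and OPC between the adults. Inh_Sst nuclei per astrocyte nucleus were 8.19 and 0.988 in the neonates (replicates 1 and 2), and 8.63 and 0.894 in the adults. The ratio thus followed the replicate number, which is also the batch, so that animal and batch cannot be told apart. Between ages its log2 difference was -0.05 (adjusted p = 0.976, limma). Inh_Sst nuclei per nucleus of OPC, the oligodendrocyte precursor cells, were 3.65 and 3.36 at D0, and 69.0 and 5.29 at Y2, where the first rests on 2 OPC nuclei (counting interval 17.1 to 279). The log2 difference of 2.29 did not pass (adjusted p = 0.213, limma), but did without Y2 replicate 2 (3.99, adjusted p = 0.0163).

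**Figure D3:**
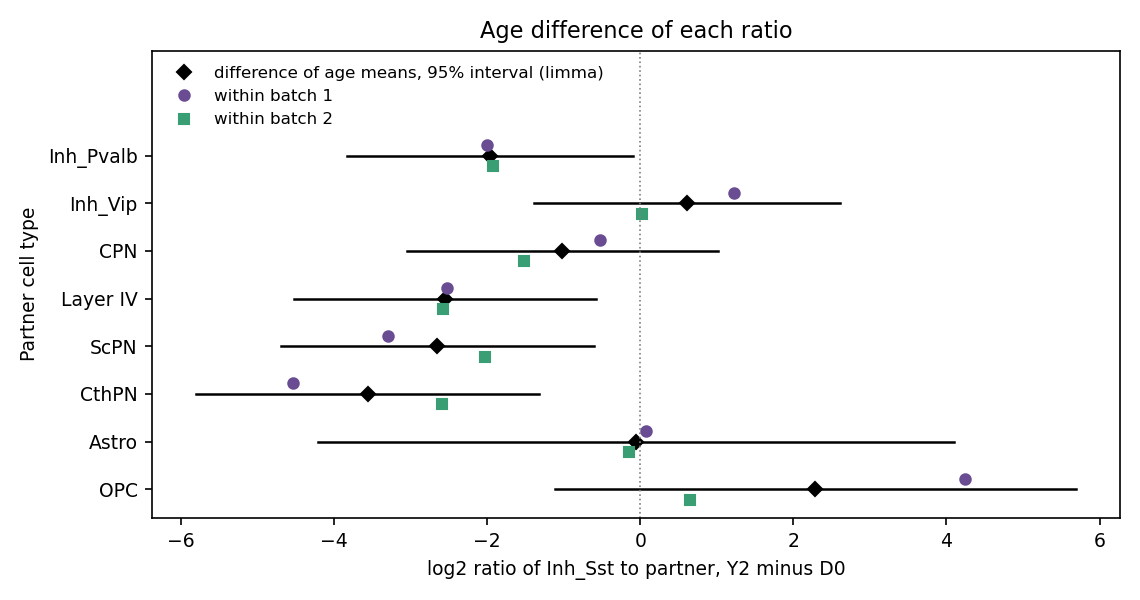
Difference between ages (Y2 minus D0) in the log2 ratio of Inh_Sst (x axis) to each partner type (y axis), as the limma estimate with its 95% interval (black) and within batch 1 (purple circles) and batch 2 (green squares). Both batches lie below 0 for Inh_Pvalb and all 4 projection neuron types, and they nearly coincide for Inh_Pvalb and Layer IV.

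Inh_Sst was among the types that varied least between animals of an age. The odds of being Inh_Sst differed 1.18-fold between the D0 replicates and 1.17-fold between the Y2 replicates, rank 3 from the smallest among 9 types at D0 and among 10 at Y2. The small spread was shared with Inh_Pvalb (1.19-fold at D0, 1.09-fold at Y2) and Inh_Lamp5 (1.12-fold at Y2). Inh_Vip differed 1.75-fold and 1.88-fold. At Y2 the 4 projection neuron types differed by between 1.92-fold (Layer IV) and 2.69-fold (CPN). At D0 they differed by only 1.09-fold (ScPN) to 1.33-fold (CPN). Against counting error, the Inh_Sst replicates lay 3.44 counting SEs apart at D0 and 1.51 at Y2. Within interneurons they lay 3.36 apart at D0 and 0.0972 at Y2. The spread of Inh_Sst between the adults was therefore within what counts of this size give, and that between the neonates was larger. The wide adult ranges of its ratios to CPN, ScPN and CthPN went with the spread of those partners.

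**Figure D4:**
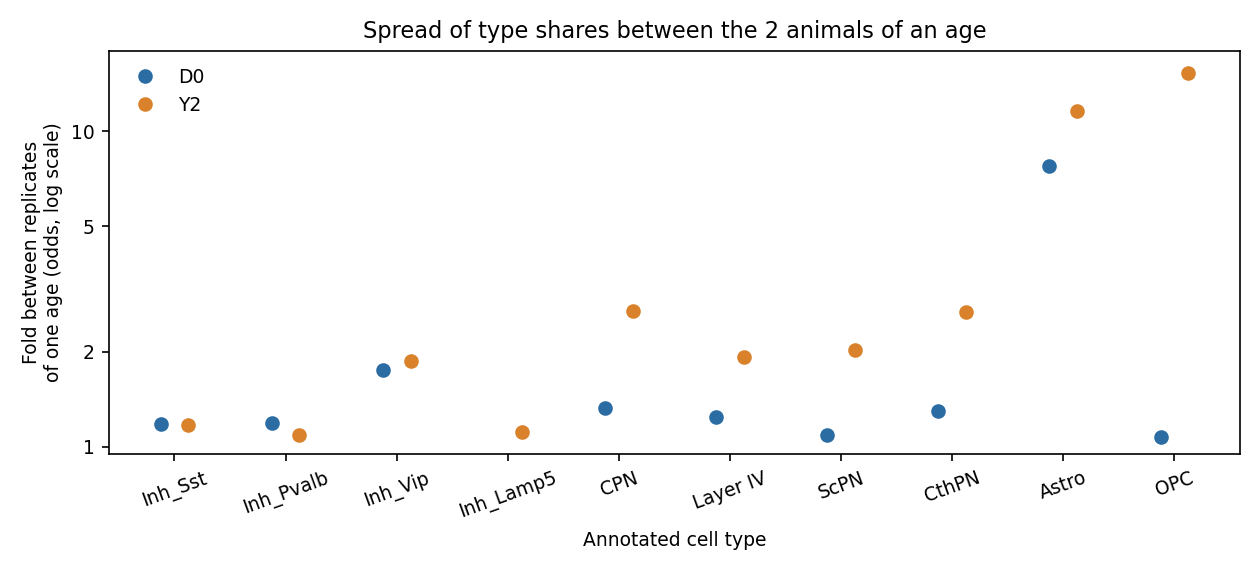
Fold difference in odds between the 2 replicates of an age (y axis, log scale, larger over smaller) for each annotated type among all nuclei (x axis), coloured by age (blue D0, orange Y2). Inh_Sst lies at 1.18 and 1.17 and Inh_Pvalb at 1.19 and 1.09, whereas CPN and CthPN lie at 2.69 and 2.67 at Y2 and Astro at 7.75 and 11.6. Inh_Lamp5 has no D0 point because it was listed 0 times.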

How the data were processed

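Nuclei sorted as DAPI-positive were profiled with droplet-based 3' libraries. The authors counted them with Cell Ranger 2.1.0 against a marmoset pre-mRNA transcriptome, evened library complexity, removed nuclei with few genes or poorly explained by canonical correlation batch correction, and clustered and annotated them in Seurat. These filters and the treatment of doublets, not given in the sources used here, can alter shares of types. The labels give somatosensory cortex as tissue, although their protocol text also names motor cortex and, for extraction, cerebellum. The sample titles number some replicates differently from the descriptions used here. The deposited table holds labels, not values.

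Nuclei were counted per library (Python 3.11.15, pandas 2.3.3, scipy 1.17.1). Shares (logit, 0.5 nuclei added) over 10 types and 4 interneuron types, and log2 ratios of 45 pairs, were compared between ages with limma 3.58.1 in R 4.3.3 (two-sided, Benjamini-Hochberg, threshold 0.05). The ratio fit was also run on simulated data, in which all types had the same spread and Inh_Lamp5 was present at both ages. These data differ in both respects, so that the simulation does not bear on the Inh_Lamp5 pairs or on unequal spread. Pairs share types and are not independent. In the interneuron fit limma pooled the spread of all types. Replicate numbers mark the deposited batch, so they pair the libraries by label. Deviations of same-numbered libraries from their age means had a correlation of 0.417 over 9 types. The odds in replicate 1 over replicate 2 ran the same way at both ages for astrocytes (0.129 at D0, 0.0864 at Y2). For Inh_Sst they ran opposite ways (1.18 at D0, 0.854 at Y2). All Inh_Sst clusters and every partner type were named. The members, lists and tests were chosen with earlier results of these data known.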

Additional observations from a re-analysis of the deposited data

Results flagged for a closer look

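Between ages, the ratio of Inh_Sst to astrocytes moved one way in batch 1 and the other way in batch 2. The log2 difference (Y2 minus D0) was 0.075 in batch 1 and -0.14 in batch 2. With 1 library of each age in a batch, whether the batches differ was not tested.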

How the results depend on the processing

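The difference of Inh_Sst over all nuclei (log odds -1.41) kept its direction under all 14 alternatives but passed in 4. It did not pass with the quasi-binomial model (-1.36, also with its dispersion held at 1 or more), the replicate block (-1.41), cluster 20 left out (-1.19) or counted as Inh_Lamp5 (-1.17), as centred log-ratio without Inh_Lamp5 (-0.68), or with any library left out (-1.50 to -1.33). The share of interneurons lost its call only on that centred log-ratio scale (-0.31), but its fits without a D0 library had an SE below counting error. That scale and the held dispersion were added after seeing the data.

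The 2 calls among 9 Inh_Sst ratios became 4 with the replicate block, 0 with cluster 20 moved to Inh_Lamp5, and 1 to 4 with a library left out (4 without Y2 replicate 2, otherwise 1). The 13 calls among all 45 pairs became 26, 0 and 7 to 25 in that order. Both counts stayed at 2 and 13 with 1 nucleus added and with cluster 20 left out. The remaining settings tested fewer ratios. The quasi-binomial model, which cannot take the neonatal zeros of Inh_Lamp5, called 1 of 8 Inh_Sst ratios and 1 of 36 pairs, and 0 of each with its dispersion held at 1 or more. Limma without Inh_Lamp5 called 0 of 8 and 0 of 36, and with neuronal types only 5 of 7 and 20 of 28.

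The CthPN ratio lost its call with the quasi-binomial model (-3.35, either way), with cluster 20 as Inh_Lamp5 (-3.24), without Inh_Lamp5 pairs (-3.56) and in 3 of 4 fits with a library left out (-4.24 to -2.88). Calls were gained for Inh_Pvalb with the quasi-binomial model (-1.95) and neuronal types only (-1.96), and for Layer IV (-2.55) and ScPN (-2.65) with the replicate block and with neuronal types only. With a library left out ScPN ranged from -3.12 to -2.18 and passed only at -3.12, without Y2 replicate 2. The CPN and Inh_Vip ratios kept direction and did not pass under any of 12 alternatives. The astrocyte ratio, near 0, turned positive with cluster 20 left out or recounted (0.27 for both), and ranged from -1.67 to 1.57 with a library left out (1.47 without D0 replicate 1, 1.57 without Y2 replicate 2).

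With every nucleus weighted equally, replicate 1 gave 33.5%, 40.1% and 31.8% of clusters 11, 20 and 22. The adult values rest on 434 nuclei, and Wilson half-widths of Inh_Sst shares reached 0.758 points over all nuclei and 3.34 over interneurons. Otherwise the cause of a changed call was not tested.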
